A study of Mus musculus with 2 samples.

Results

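The bone morphogenetic protein (BMP) and growth differentiation factor (GDF) ligands described here are *Bmp2*, *Bmp3*, *Bmp4*, *Bmp5*, *Bmp6*, *Bmp7*, *Gdf5*, *Gdf6* and *Gdf10*. They were taken by gene name from the deposited RNA-Seq count table, and all 9 were found among its 24421 rows. The table holds 1 library of primary chondrocytes and 1 library of primary dermal fibroblasts. The chondrocytes were untreated cells that collagenase had freed from newborn mouse rib cartilage, used within 2 passages, and the dermal fibroblasts were untreated cells freed likewise from newborn dorsal skin. Strain, sex and the number of animals behind each culture are not given for these libraries in the sources used here. The study compared the cell types to find genes with higher expression in chondrocytes.

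BMPs and GDFs are secreted proteins of the TGF-β superfamily. They are made as precursors, cut by furin-like proprotein convertases, and act as dimers on pairs of type I and type II serine/threonine kinase receptors, which phosphorylate the receptor-regulated SMAD proteins. Secreted antagonists such as noggin and chordin keep the ligands from their receptors. In cartilage, BMP signalling is required for chondrocyte differentiation and growth plate function, and in skin it takes part in hair follicle development and cycling.

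The 9 ligands fall into 4 groups by the sequence of the secreted domain. Coding sequences of the GENCODE vM1 annotation were translated, and the last 100 residues of each protein, which hold most of the cystine knot shared by the superfamily, were aligned pairwise. BMP2 and BMP4 shared 92 of 100 residues. BMP5 shared 92 with BMP6 and 89 with BMP7, and BMP6 shared 87 with BMP7. GDF5 and GDF6 shared 86, and BMP3 and GDF10, which is also called BMP3B, shared 81. Between these groups the identity was lower, from 41% to 62%. Whether the counting divided reads between such paralogs was not tested.

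**Figure D1:**
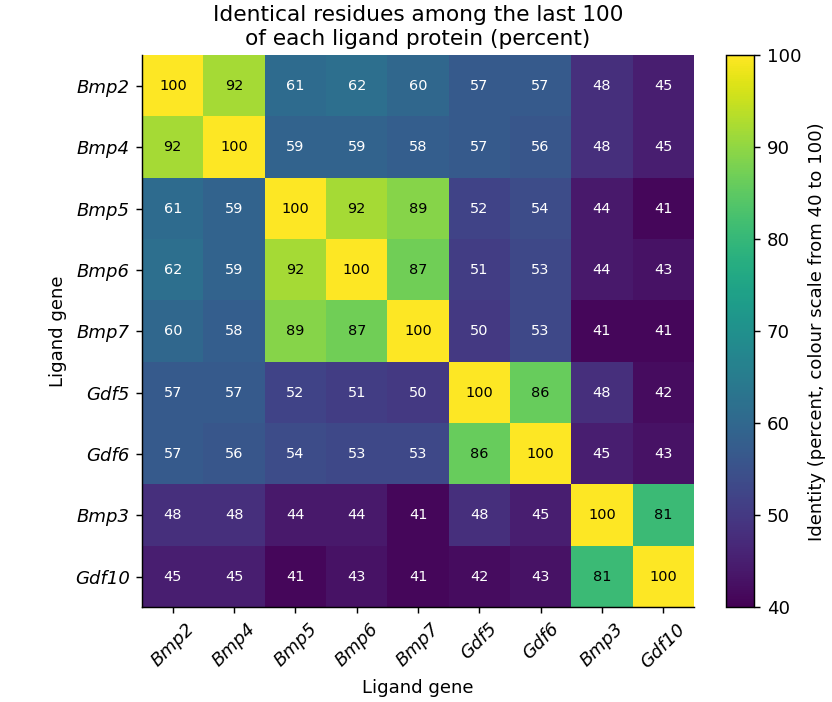
Percent of identical residues among the last 100 residues for each pair of the 9 ligand proteins (rows and columns are the ligand genes, colour scale from 40 to 100 percent). The 4 blocks of high identity are BMP2 with BMP4 (92), BMP5 with BMP6 and BMP7 (87 to 92), GDF5 with GDF6 (86) and BMP3 with GDF10 (81).

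RefSeq promoter windows on GRCm38.p6 were found for 4 of the 9 genes, *Bmp4*, *Bmp5*, *Bmp6* and *Gdf10*. The 250 bases before the annotated start are shown for *Gdf10* and *Bmp5*, the ligands with the highest levels per length in chondrocytes, because their base composition lies near opposite ends of the range. Both are written 5′ to 3′ on the strand of the gene, with each CpG in capitals. The *Bmp5* window is chr9:75775115-75775364 on the plus strand, and the *Gdf10* window is chr14:33923337-33923586 on the plus strand.
Bmp5: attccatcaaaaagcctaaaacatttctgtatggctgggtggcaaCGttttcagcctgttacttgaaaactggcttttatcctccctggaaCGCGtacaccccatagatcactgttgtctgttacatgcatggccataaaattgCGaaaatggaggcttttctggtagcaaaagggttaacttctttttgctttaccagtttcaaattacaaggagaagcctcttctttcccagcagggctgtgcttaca
Gdf10: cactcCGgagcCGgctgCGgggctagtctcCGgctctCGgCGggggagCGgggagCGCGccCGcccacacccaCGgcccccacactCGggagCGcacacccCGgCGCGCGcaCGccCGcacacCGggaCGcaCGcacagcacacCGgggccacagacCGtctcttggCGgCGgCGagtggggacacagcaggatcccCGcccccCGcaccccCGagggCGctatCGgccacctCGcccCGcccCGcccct
The *Bmp5* window had 4 CpGs and a GC content of 42.8%, which was above 17.9% of the 32817 RefSeq windows. The *Gdf10* window had 35 CpGs and a GC content of 78.8%, above 98.3% of the windows. *Bmp6* (22 CpGs, 68.8% GC) and *Bmp4* (11 CpGs, 63.2% GC) lay between them, and the median window had 6 CpGs and 52.4% GC. Short motifs were then searched on both strands. The core ACAAAG, which SOX proteins bind, occurred in 16.5% of all windows. The letters TATAAA of the TATA box occurred in 12.4%. The letters GGCGCC, to which SMADs bind in GC-rich elements, occurred in 9.59%. Of the 4 ligand windows, 0 held any of these letters.

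The counts summed to 18788599 reads in chondrocytes and 17563724 in dermal fibroblasts. The labels were checked with defining genes. *Col2a1*, the main cartilage collagen, had 1447098 counts in chondrocytes against 0 in dermal fibroblasts, *Acan* had 148105 and 35, and *Sox9* had 5045 and 342. *Col1a1*, the main collagen of dermis and bone, had 39143 and 322379. For the ligands, counts were scaled to CPM, the usual depth-normalised read count, with edgeR TMM factors, which set the bulk of genes equal between the libraries. A fold is the scaled count in chondrocytes over that in dermal fibroblasts, with counts under 3 set to 3, and its 95% Clopper-Pearson interval covers counting error only. With 1 library per cell type no difference has a replicate check, no p-value was computed, and the cell type cannot be told apart from the animals, the culture or the library preparation. In such libraries, fewer cells of a type and less RNA per cell cannot be told apart either.

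Of the 9 ligands, 6 were over 2-fold higher in chondrocytes, 3 lay within 2-fold and 0 were over 2-fold higher in dermal fibroblasts. The 6 were *Bmp5*, *Gdf5*, *Bmp2*, *Bmp7*, *Gdf10* and *Bmp6*, each with its counting interval wholly above 2-fold. All 9 ligands had over 3 counts in at least 1 library. Among the 15616 genes with over 3 counts in at least 1 library, 12.1% were over 2-fold higher in chondrocytes and 15.8% in dermal fibroblasts, and the whole interval lay beyond 2-fold for 6.67% and 9.90%. Among the genes with at least 100 counts in at least 1 library, 8.79% and 13.3% were over 2-fold higher in chondrocytes and in dermal fibroblasts. The share of the ligands over 2-fold higher in chondrocytes, 66.7%, was thus above the background share, in a list drawn up with earlier results of these data known. The median fold of the 9 ligands was 5.19, against 1.0 for all 15616 genes. Together the ligands had 3109 counts in chondrocytes against 500 in dermal fibroblasts, a 6.39-fold difference (interval 5.81 to 7.03). Without *Bmp5*, the other ligands together were 4.52-fold higher (interval 4.09 to 5.0).

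**Figure D2:**
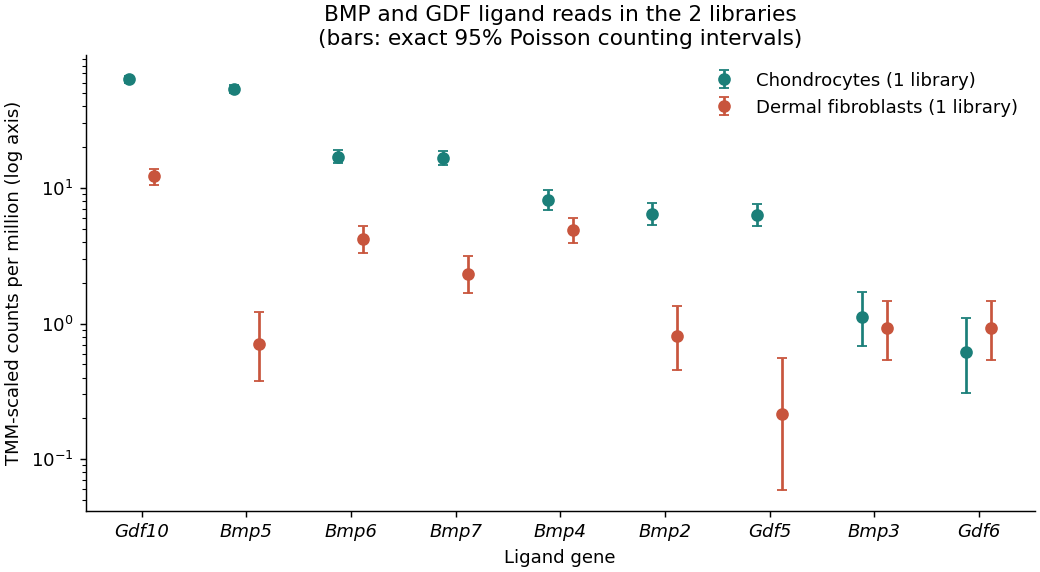
TMM-scaled read counts in CPM (log axis) of the 9 ligand genes in the chondrocyte library and the dermal fibroblast library, with exact 95% Poisson intervals as bars. The intervals of the libraries are apart for 7 genes and overlap for *Bmp3* and *Gdf6*.

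*Bmp5*, *Bmp6* and *Bmp7* encode closely related ligands. *Bmp5* is the gene mutated in short ear mice, which have defects of the ribs, sternum and external ear. The gene spans 75775365 to 75900316 of chromosome 9 (GRCm38, as for the genes that follow). It had 966 counts in chondrocytes against 13 in dermal fibroblasts, or 53.9 CPM (Poisson interval 50.5 to 57.4) and 0.706 CPM (interval 0.376 to 1.21). The chondrocyte library was far above the dermal library, with a fold of 76.3 (interval 44.4 to 144) that exceeded the fold of 99.7% of the 15616 genes.

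*Bmp7*, which encodes osteogenic protein 1, lies on chromosome 2 from 172868012 to 172940321. It had 299 counts in chondrocytes against 43 in dermal fibroblasts, or 16.7 CPM (interval 14.8 to 18.7) and 2.34 CPM (interval 1.69 to 3.15). It was 7.14-fold higher in chondrocytes (interval 5.18 to 10.1). *Bmp6*, a ligand of hypertrophic cartilage that is also known for the control of hepcidin in the liver, lies on chromosome 13 from 38345716 to 38500314. It had 305 and 77 counts, or 17.0 CPM (interval 15.2 to 19) and 4.18 CPM (interval 3.30 to 5.23), and was 4.07-fold higher in chondrocytes (interval 3.16 to 5.29). Its annotated span shares 49 bp with *Txndc5*, which had 10733 and 8993 counts. The spans of *Bmp3*, *Bmp4* and *Bmp7*, and that of *Bmp6*, also overlap long non-coding RNA genes. The strand setting of the counting is not given in the sources used here, and the part of such overlapping genes in the ligand counts was not tested. In chondrocytes *Bmp6* and *Bmp7* had near-equal counts, and the counting interval of the *Bmp5* fold overlapped neither of theirs, although the proteins share most of their secreted domain. Together these 3 genes had 1570 and 133 counts and were 12.1-fold higher (interval 10.2 to 14.6).

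*Bmp2* and *Bmp4* encode the pair of ligands closest to *Drosophila* decapentaplegic. In other experiments of the study, BMP2 was given to limb bud cells to study their differentiation to chondrocytes. *Bmp2* lies on chromosome 2 from 133552159 to 133562896. It had 115 counts in chondrocytes against 15 in dermal fibroblasts, or 6.42 CPM (interval 5.30 to 7.70) and 0.815 CPM (interval 0.456 to 1.34). The libraries did not overlap within counting error, and the fold was 7.87 (interval 4.58 to 14.5). *Bmp4*, which lies on chromosome 14 from 46383525 to 46390669, had 147 and 90 counts, or 8.20 CPM (interval 6.93 to 9.64) and 4.89 CPM (interval 3.93 to 6.01). Its fold of 1.68 (interval 1.28 to 2.21) was above 1 but not over 2. The intervals of the *Bmp2* and *Bmp4* folds did not overlap. *Bmp2* was thus the ligand of the pair with the larger difference, and *Bmp4* the one with more reads in both libraries.

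*Gdf5* and *Gdf6* are known for the formation of joints. *Gdf5*, the gene mutated in brachypodism mice, lies on chromosome 2 from 155941023 to 155945367. It had 114 counts in chondrocytes against 4 in dermal fibroblasts, or 6.36 CPM (interval 5.25 to 7.64) and 0.217 CPM (interval 0.0592 to 0.556). The fold was 29.3, with a wide interval from 11.1 to 109 because of the 4 dermal reads. With counts under 10 set to 10 it was 11.7. With 1 added to each count, after scaling to a common depth rather than to CPM, it was 23.6. *Gdf6*, which lies on chromosome 4 from 9844372 to 9862345, had 11 and 17 counts, or 0.614 CPM (interval 0.306 to 1.10) and 0.923 CPM (interval 0.538 to 1.48). Its fold of 0.665 had an interval from 0.281 to 1.5, so that a difference was not detectable at this depth. Genes of joint and tendon were read in both libraries. In the list of *Prg4*, *Scx*, *Tnmd* and *Mkx*, 3 of 4 genes were over 2-fold higher in chondrocytes, where 12.1% of all genes were. For 2 of these the whole interval lay beyond 2-fold, but not for *Mkx* (fold 2.23, interval 1.35 to 3.77). The summed level of the list was 23.0 CPM in chondrocytes and 16.0 CPM in dermal fibroblasts. *Scx*, a transcription factor of tendon, had 160 and 58 counts, and *Tnmd*, which encodes tenomodulin, had 128 and 193. *Prg4*, which encodes the joint lubricant lubricin, had 72 and 19 counts (named after its values were seen). The part of joint or tendon cells in the *Gdf5* reads was not tested.

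*Bmp3* and *Gdf10* encode the most divergent pair, and BMP3 is known to oppose the osteogenic BMPs. *Gdf10* lies on chromosome 14 from 33923587 to 33936514. It had the most reads of the 9 ligands in each library, with 1132 counts in chondrocytes against 224 in dermal fibroblasts, or 63.2 CPM (interval 59.5 to 66.9) and 12.2 CPM (interval 10.6 to 13.9). It was 5.19-fold higher in chondrocytes (interval 4.49 to 6.02). *Bmp3*, which lies on chromosome 5 from 98854415 to 98884053, had 20 and 17 counts, or 1.12 CPM (interval 0.682 to 1.72) and 0.923 CPM (interval 0.538 to 1.48). Its fold of 1.21 had an interval from 0.601 to 2.46, and no difference was detectable at this depth. Each pair or trio of related ligands thus had at least 1 gene over 2-fold higher in chondrocytes, and in 3 of the 4 groups a close relative lay within 2-fold.

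**Figure D3:**
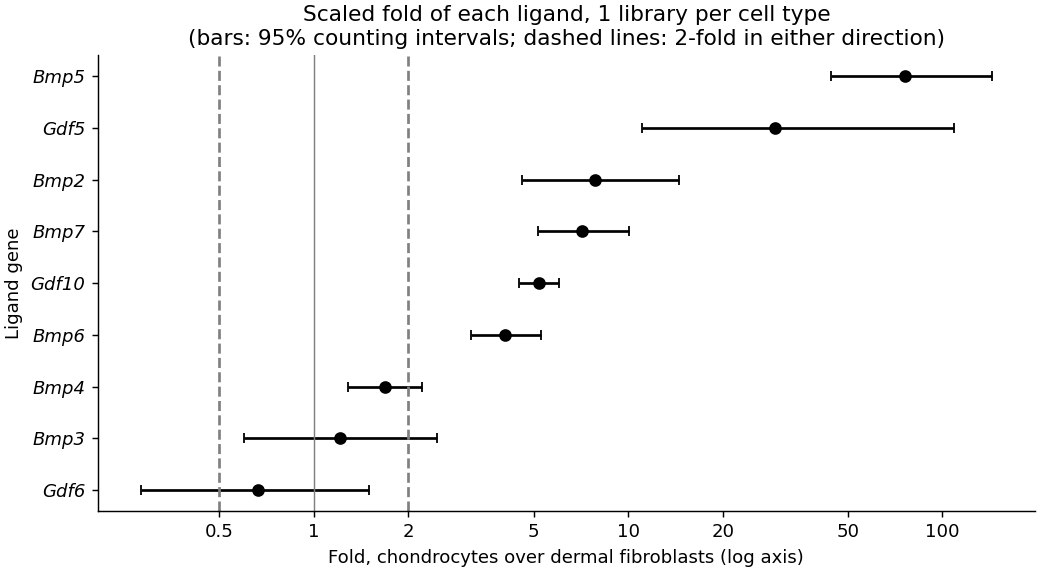
Fold of each ligand in chondrocytes over dermal fibroblasts (log axis) with its 95% counting interval, 1 library per cell type, and dashed lines at 2-fold in either direction. *Bmp5* is farthest to the right at 76.3, the intervals of 6 genes lie wholly right of 2-fold, and those of *Bmp4*, *Bmp3* and *Gdf6* cross a dashed line.

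To compare levels between ligands, the scaled counts were divided by the exon length of each gene in GENCODE vM1. In chondrocytes *Gdf10* stood first at 16.9 CPM per kb, 1.26 times *Bmp5* (interval 1.16 to 1.38), which stood second at 13.4 CPM per kb. *Bmp5* was 2.82 times *Bmp6* (interval 2.48 to 3.22). *Bmp6* (4.75 CPM per kb), *Bmp7* (4.15) and *Bmp4* (3.69) followed, and neighbours among these 3 did not differ beyond counting error. *Gdf5* came next at 2.74 CPM per kb, then *Bmp2* at 1.8, and *Bmp3* (0.359) and *Gdf6* (0.174) were lowest and did not differ from each other beyond counting error. The order at the top turned with the coding length in place of the exon length, where *Bmp5* made up 33.6% of the summed ligand reads per kb and *Gdf10* 31.0%. *Bmp7* (11.0%) then also passed *Bmp6* (9.44%), and *Bmp2* (4.60%) passed *Gdf5* (3.64%). Among the 14288 genes with over 3 counts and an annotated length, the level of *Gdf10* was above 78.9%, that of *Bmp5* above 74.0% and that of *Bmp2* above 33.2%.

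In dermal fibroblasts *Gdf10* also stood first, at 3.25 CPM per kb, and was 1.48 times *Bmp4* (interval 1.15 to 1.91), which stood second at 2.2 CPM per kb. *Bmp6* followed at 1.17 and *Bmp7* at 0.581. *Bmp3*, *Gdf6*, *Bmp2*, *Bmp5* and *Gdf5* came last, between 0.0937 and 0.297 CPM per kb, and neighbours in this part of the order did not differ beyond counting error. Of the summed ligand reads per kb, *Gdf10* made up 35.2% in chondrocytes and 39.4% in dermal fibroblasts. *Bmp5* made up 27.9% in chondrocytes and 2.13% in dermal fibroblasts, and *Bmp4* made up 7.69% and 26.6%. The order thus differed most for *Bmp5*, second in chondrocytes and eighth in dermal fibroblasts. *Bmp5*, *Bmp6* and *Bmp7* together made up 46.5% of the ligand reads per kb in chondrocytes and 23.3% in dermal fibroblasts, and *Bmp2* and *Bmp4* together made up 11.5% and 29.4%.

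**Figure D4:**
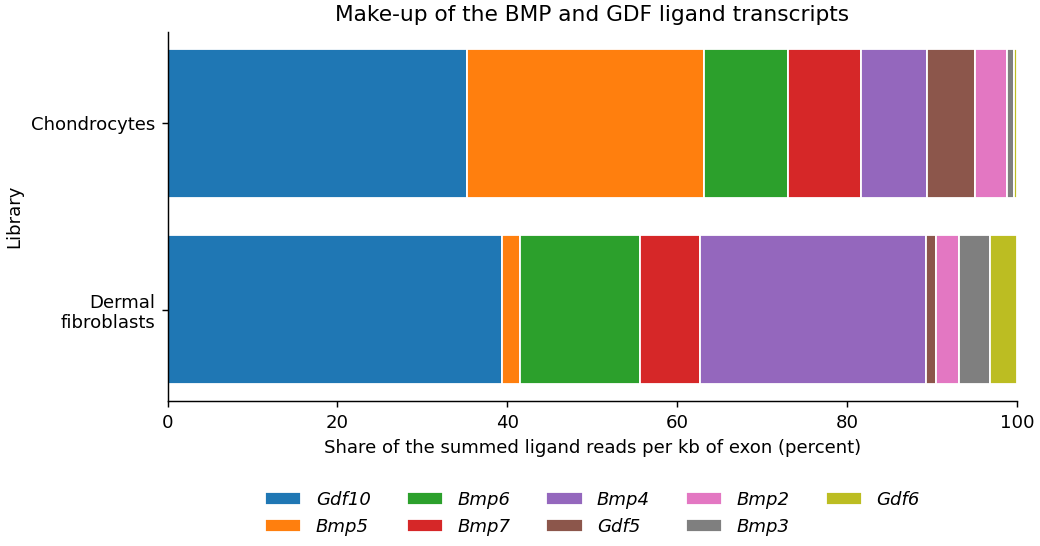
Share of each ligand in the summed ligand reads per kb of exon (percent) in the chondrocyte and dermal fibroblast libraries, as stacked bars that each add to 100. *Bmp5* takes 27.9% in chondrocytes and 2.13% in dermal fibroblasts, and *Bmp4* takes 7.69% and 26.6%.

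The receptors of these ligands were read in both libraries. Of the 4 type I receptors, *Bmpr1a* (2241 counts in chondrocytes against 2200 in dermal fibroblasts) had a fold of 1.05 (interval 0.986 to 1.11) and *Acvr1* (1068 and 1040 counts) had a fold of 1.05 (interval 0.968 to 1.15). *Bmpr1b*, a type I receptor of condensing cartilage that binds GDF5, had 212 and 106 counts and a fold of 2.05 (interval 1.62 to 2.62), which was 1.87 with scaling by total counts. *Acvrl1*, a receptor best known from endothelium, had 204 and 765 counts and was higher in dermal fibroblasts by 3.65-fold (interval 3.12 to 4.28). The endothelial genes *Pecam1*, *Cdh5*, *Kdr*, *Tek* and *Emcn* summed to 13.6 CPM in chondrocytes and 40.7 CPM in dermal fibroblasts, with none at 0. The highest of these were *Kdr* (70 and 276 counts) and *Cdh5* (68 and 198 counts). Of the 5, 4 were over 2-fold higher in the dermal library, where 15.8% of all genes were, and 3 had the whole interval beyond 2-fold. The fold of *Emcn* (21 and 45 counts) was 0.479, or 0.522 with scaling by *Actb*. The part of endothelial cells in the *Acvrl1* reads was not tested.

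Of the 3 type II receptors, *Bmpr2* (1828 and 2040 counts) had a fold of 0.920 (interval 0.864 to 0.981). *Acvr2a*, which binds activins as well as BMPs, had 390 and 850 counts and a fold of 0.471 (interval 0.417 to 0.532), which was 0.513 with scaling by *Actb*. Among the 8 co-receptors and accessory receptors, 2 were over 2-fold higher in each direction, where 12.1% of all genes were higher in chondrocytes and 15.8% in dermal fibroblasts. *Bambi*, a pseudoreceptor that dampens signalling, was 8.86-fold higher in chondrocytes (595 and 69 counts, interval 6.89 to 11.5), and *Neo1*, the receptor of repulsive guidance molecules, was 2.65-fold higher there (5944 and 2302 counts). *Tgfbr3*, which encodes betaglycan, was 3.84-fold higher in dermal fibroblasts (2579 and 10184 counts, interval 3.68 to 4.02), and the co-receptor *Rgmb* was 2.59-fold higher there (186 and 495 counts, interval 2.18 to 3.08). The type I list, the type II list and the co-receptor list had median folds of 1.05, 0.660 and 0.928. The type II median is the fold of *Acvr2b*, which had 18 and 28 counts and an interval from 0.344 to 1.24 that holds 1.

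Of 13 secreted antagonists and modulators, 4 were over 2-fold higher in dermal fibroblasts, each with its whole interval beyond 2-fold, and 1 was over 2-fold higher in chondrocytes. Among all genes the shares were 15.8% in dermal fibroblasts and 12.1% in chondrocytes, and 9.90% and 6.67% for whole intervals beyond 2-fold. *Grem1*, which encodes the BMP antagonist gremlin, had 223 counts in chondrocytes against 1139 in dermal fibroblasts and was 4.97-fold higher in the latter (interval 4.30 to 5.77), and the secreted glycoprotein gene *Fstl1*, the most abundant of the list, was 3.26-fold higher (13840 and 46302 counts). The others were *Fstl3* (45 and 143 counts) and *Nbl1* (573 and 1462 counts). *Chrdl2*, a chordin-like gene of cartilage, had 38 counts in chondrocytes against 0 in dermal fibroblasts, where a count of 0 allows up to 3. It was 13-fold higher in chondrocytes with the dermal count at that limit, and the lower end of its Clopper-Pearson interval, from the counts 38 and 0, was 10.1. *Twsg1*, which encodes a partner of chordin, had 2539 and 1822 counts and a fold of 1.43. *Nog*, which encodes noggin, had 295 and 152 counts and a fold of 1.99 (interval 1.63 to 2.44), which was 1.81 with total counts and 2.17 with *Actb*. Per kb of exon, *Nog* had 8.56 CPM in chondrocytes and 4.30 CPM in dermal fibroblasts. The balance of antagonists and ligands was not tested. The median fold of the 13 genes was 1.13, against 1.0 for all genes.

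Among the proteases that process the ligands, *Pcsk6* (also called PACE4), a proprotein convertase, had 7046 counts in chondrocytes against 296 in dermal fibroblasts and was 24.4-fold higher in chondrocytes (interval 21.8 to 27.6). *Furin*, the best-known convertase of BMP precursors, had 3132 and 3282 counts and a fold of 0.980 (interval 0.933 to 1.03). *Pcsk5* was 3.08-fold higher in dermal fibroblasts (300 and 948 counts, interval 2.70 to 3.51). *Bmp1*, which despite its name encodes a procollagen and chordin protease, was 4.63-fold higher in dermal fibroblasts (2363 and 11232 counts, interval 4.43 to 4.84). Of the 6 proteases with over 3 counts in at least 1 library, 1 was thus over 2-fold higher in chondrocytes and 2 in dermal fibroblasts. The shares of all genes with such counts were 12.1% and 15.8%.

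Of the 6 SMADs of the BMP branch, which carry or inhibit the signal, 3 were over 2-fold higher in chondrocytes and 0 in dermal fibroblasts, where 12.1% and 15.8% of all genes were. *Smad1*, a receptor-regulated SMAD, had 801 and 706 counts and a fold of 1.17 (interval 1.05 to 1.29). *Smad5* (1728 and 1684 counts) had a fold of 1.05 (interval 0.985 to 1.13), and *Smad4*, the common partner, had 1356 and 1616 counts and a fold of 0.862 (interval 0.801 to 0.927). *Smad9*, a receptor-regulated SMAD, had 461 and 78 counts and was 6.07-fold higher in chondrocytes (interval 4.77 to 7.82). The inhibitory *Smad6*, whose product blocks BMP receptors, had 829 and 250 counts and was 3.41-fold higher (interval 2.95 to 3.94). *Smad7*, the other inhibitory SMAD, had 754 and 366 counts and a fold of 2.12 (interval 1.87 to 2.40), which was 1.93 with total counts.

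Of 13 genes known to respond to BMP signals, 9 were over 2-fold higher in chondrocytes and 0 in dermal fibroblasts, where 12.1% and 15.8% of all genes were. Of the 13, 4 also stand in the receptor or SMAD lists (*Bambi*, *Smad6*, *Smad7* and *Smad9*), and these are all among the 9. With total counts the fold of *Smad7* was 1.93. *Msx1*, also among the 9, had 13 and 1 counts, and its fold of 4.45 was taken with the dermal count set to 3. *Hey1*, *Msx2*, *Runx2* and *Id4* lay within 2-fold. The median fold of the list was 3.95, against 1.0 for all genes. The *Id* genes encode inhibitors of basic helix-loop-helix factors. *Id1* had 1918 counts in chondrocytes against 320 in dermal fibroblasts and was 6.16-fold higher in chondrocytes (interval 5.47 to 6.95), and *Id3* had 3047 and 793 counts and was 3.95-fold higher (interval 3.65 to 4.27). *Id2* had 1522 and 273 counts and was 5.73-fold higher (interval 5.03 to 6.54). *Id4* lay on the other side of 1, with 387 and 547 counts and a fold of 0.727 (interval 0.636 to 0.829). *Dlx5*, a homeobox gene of cartilage and bone, had 93 counts and 3 counts, and its fold of 31.8 had an interval from 10.6 to 157. Such genes also respond to other signals, and BMP activity itself was not measured.

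**Figure D5:**
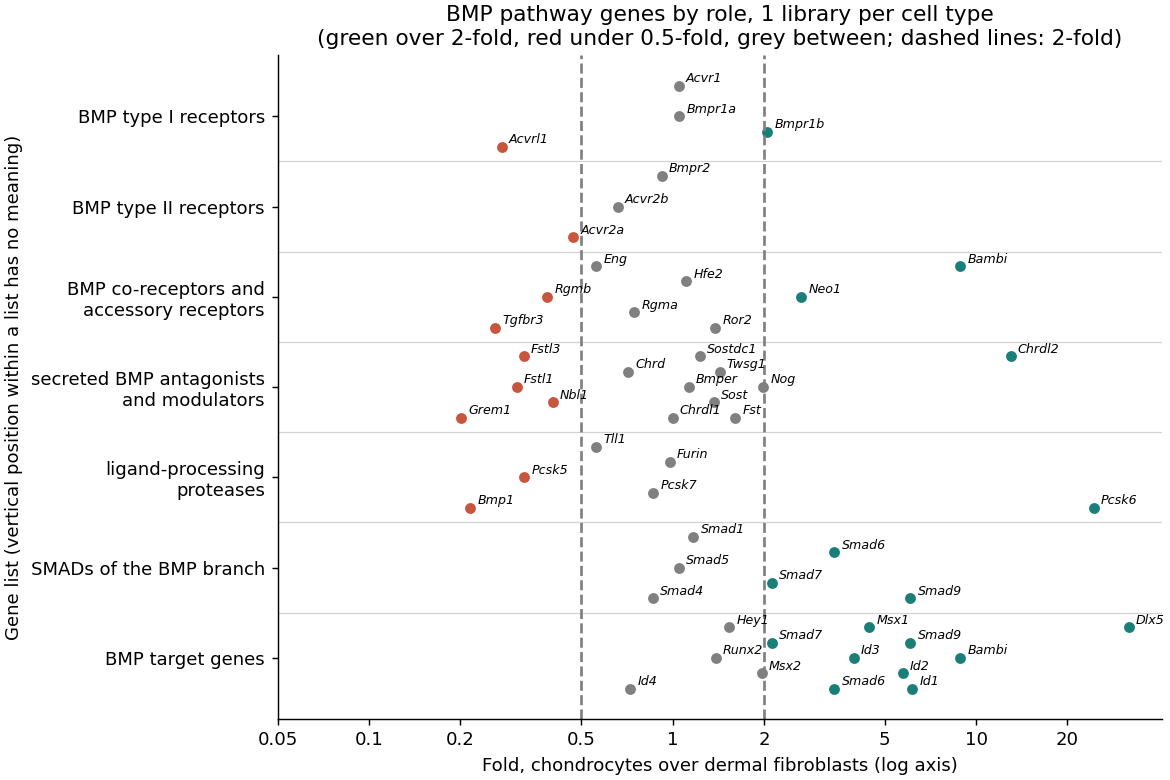
Fold in chondrocytes over dermal fibroblasts (log axis) of the genes with over 3 counts in at least 1 library in the 7 lists of BMP receptors, modulators, proteases, SMADs and targets, grouped by role, with dashed lines at 2-fold in either direction. Counts under 3 in dermal fibroblasts, for *Chrdl2*, *Msx1* and *Sost*, were set to 3. *Pcsk6* (24.4) and *Dlx5* (31.8) lie far right, and genes in 2 lists appear in both.

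Markers of other cells that each preparation could hold were compared by list. For the counts of genes that follow, 12.1% of all genes were over 2-fold higher in chondrocytes and 15.8% in dermal fibroblasts. Summed over each list, levels in chondrocytes and dermal fibroblasts were 728 and 16.5 CPM for hypertrophic chondrocytes (4 of 4 genes over 2-fold higher in chondrocytes, led by *Col10a1* with 10378 and 3 counts and *Mmp13* with 2276 and 296) and 610 and 196 CPM for osteoblasts (6 of 6, led by *Spp1* with 9639 and 3413 counts and *Alpl* with 734 and 173). Both lists share *Ibsp*, and the osteoblast marker *Bglap* had 6 counts and 0 counts. With its dermal count set to 3, the fold of *Bglap* was 2.05, or 1.87 with total counts. *Bmp2* and *Bmp6* are known to be expressed by such cells, and the part of these cells in the ligand reads was not tested. Keratinocyte genes summed to 8.93 and 249 CPM (4 of 6 over 2-fold higher in dermal fibroblasts, led by *Krt14* with 17 and 1939 counts and *Krt5* with 1 and 1693), and melanocyte genes to 1.39 and 21.2 CPM (3 of 4, led by *Dct* with 0 and 238 counts and *Pmel* with 14 and 90). Genes of the dermal papilla, a source of BMP ligands in the hair follicle, summed to 49.8 and 125 CPM, with *Crabp1* at 11 and 1786 counts, and of the 5 genes 3 were more than 2-fold higher in dermal fibroblasts and 2, among them *Alpl*, in chondrocytes. Skeletal muscle genes summed to 1728 and 1252 CPM. The most abundant, *Myh3* (7784 and 6497 counts) and *Actc1* (7288 and 7970), lay within 2-fold. Of the 6 muscle genes, 3 were over 2-fold higher in chondrocytes. They were *Myod1* (fold 4.82), *Des* (2.35) and *Myog* (2.10, or 1.91 with total counts). Macrophage genes summed to 42.1 and 70.8 CPM, and the most abundant were *Cd68* (423 and 600 counts) and *Csf1r* (160 and 430). Of the 4 macrophage genes, only *Csf1r* was over 2-fold higher in dermal fibroblasts. The chondrocyte list summed to 92198 and 20.8 CPM, with 6 of 6 genes over 2-fold higher in chondrocytes, and the fibroblast list to 4291 and 33443 CPM, with 5 of 6 over 2-fold higher in dermal fibroblasts (*Col3a1* had 32090 and 273385 counts). The part of these other cells in the ligand reads of each library was not tested.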

How the data were processed

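The authors sequenced TruSeq Stranded mRNA libraries as 75 bp single-end reads and mapped them to mm10. The submitters' processing notes name CASAVA 1.8.2, TopHat2 2.0.13, Bowtie2 2.2.3 and SAMtools 0.1.19. The program that counted reads, its annotation and its strand setting are not given in the sources used here. The deposited values are raw counts per gene symbol, without normalization, for 1 library per cell type (18788599 and 17563724 counts). In 27 rows the symbol had become a date, and these rows were kept in the totals and not named.

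The 9 ligands and all gene lists were chosen with earlier results of these data known. TMM factors were 0.954 for chondrocytes and 1.05 for dermal fibroblasts (edgeR 4.0.16, R 4.3.3). Folds and Clopper-Pearson or Poisson 95% intervals were computed with Python 3.11.15, scipy 1.17.1 and pandas 2.3.3 and checked on simulated counts. The reads carried no molecular identifiers and so do not stand for independent molecules, and intervals cover counting error only. Genes with over 3 counts in at least 1 library were compared across the table. Exon lengths came from GENCODE vM1, which named 91.5% of these genes, and they were used as lengths only, since its build is NCBIM37. Positions and promoters are those of RefSeq on GRCm38. From each pathway list, the genes named were at most 4 with the whole interval beyond 2-fold, by size of fold, and the 2 most abundant. From each cell type list they were the 2 most abundant. *Col2a1*, *Acan*, *Sox9* and *Col1a1* checked the labels. Other genes given with values (*Bmpr1b*, *Nog*, *Smad1*, *Smad7*, *Id2*, *Id4*, *Msx1*, *Furin*, *Nbl1*, *Prg4*, *Mkx*, *Emcn*, *Myod1*, *Des*, *Myog*, *Bglap*, *Gdf9* and *Bmp8b* among them) were named after their values were seen. A result of the antagonist list is not reported here, and the counts and median of the list leave it out. Alternatives were scaling by total counts, DESeq2 1.42.0 size factors, the upper quartile, total counts after removing the top 10 genes of either library, and *Actb*. Others were a floor of 1 or of 10 counts, the addition of 1 to each count, and other filters and thresholds. That 1 was added to counts scaled to a common depth, not to CPM values.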

Additional observations from a re-analysis of the deposited data

How the results depend on the processing

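No paired analysis was possible because neither cell type was replicated, and for the same reason no library could be left out. The folds of the 9 ligands were recomputed under 8 alternatives, which gave 72 values, of which 0 left the reported counting interval. Over the scalings the fold of *Bmp5* ranged from 69.5 to 83.1, that of *Gdf10* from 4.72 to 5.65 and that of *Bmp4* from 1.53 to 1.83. A floor of 10 counts moved the fold of *Gdf5* from 29.3 to 11.7. Relative to TMM, total counts moved all log2 folds by -0.14 and *Actb* by 0.12. The number of ligands over 2-fold higher in chondrocytes was 6 under each alternative, a fold over 4 included. Of all genes, 1887 were over 2-fold higher in chondrocytes and 2468 in the dermal library. A fold over 4 gave 713 and 929, whole intervals beyond 2-fold gave 1041 and 1546, and genes with at least 100 counts gave 981 and 1485, each by construction fewer. Of the 59 pathway genes with over 3 counts, 17 were over 2-fold higher in chondrocytes and 15 in the dermal library, where 12.1% and 15.8% of all genes were. A fold over 4 gave 10 and 3, and at least 100 counts gave 11 in chondrocytes. For 6 of them the call changed with a scaling (*Acvr2a*, *Bmpr1b*, *Gdf9*, *Msx2*, *Nog* and *Smad7*). Of 36 ligand shares recomputed without length or with coding length, 14 left their counting interval. The share of *Bmp4* in dermal fibroblasts went from 26.6% to 18.0% without length and to 21.9% with coding length, and with coding length *Bmp5* (33.6%) stood above *Gdf10* (31.0%) in chondrocytes. Depth limits the ligands with few reads, since 5 of the 9 had under 20 counts in dermal fibroblasts.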

Other observations

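Of 18 other ligands of the BMP, GDF and activin family, 10 had over 3 counts in at least 1 library. Of these, 4 were over 2-fold higher in chondrocytes (*Inhbe*, *Mstn*, *Gdf15* and, with 6 and 3 counts, *Gdf9*). Another 5 were over 2-fold higher in dermal fibroblasts (*Inhbb*, *Inhba*, *Bmp8a*, *Gdf11* and, with 2 and 7 counts, *Bmp8b*), and the median fold of the 10 was 0.832. Of all 15616 genes with over 3 counts, 12.1% were over 2-fold higher in chondrocytes and 15.8% in dermal fibroblasts. *Inhbb*, which encodes the βB subunit of activins and inhibins, had 140 counts in chondrocytes against 1574 in dermal fibroblasts and was 10.9-fold higher in the latter (interval 9.20 to 13.1). *Inhba*, which encodes the βA subunit, had 199 and 568 counts and was 2.78-fold higher there (interval 2.36 to 3.28). In chondrocytes *Gdf15*, a stress-induced factor, was 3.07-fold higher (458 and 153 counts, interval 2.55 to 3.72). *Inhbe* had 34 counts and 0 counts and was 11.6-fold higher in chondrocytes with the dermal count at its limit of 3. The lower end of its Clopper-Pearson interval, from the counts 34 and 0, was 8.96. *Mstn*, which encodes the muscle growth inhibitor myostatin, had 31 and 4 counts and was 7.96-fold higher in chondrocytes (interval 2.81 to 31.0). Muscle genes were read in both libraries, and their part in the *Mstn* counts was not tested. *Bmp10*, *Gdf1*, *Gdf3* and *Nodal* had 0 counts in both libraries.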
